A study of Mus musculus with 6 samples.

Results

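The T cell receptor recognises antigen but has no signalling tail of its own. It is carried to the cell surface by the CD3 chains, gamma (Cd3g), delta (Cd3d), epsilon (Cd3e) and zeta (Cd247), whose tails hold the tyrosine motifs that start signalling. The coreceptor CD4 brings the kinase Lck to the receptor, Lck phosphorylates those tails, and the kinase ZAP-70 docks on them and phosphorylates the scaffold proteins LAT and SLP-76 (Lcp2). Trat1, also called TRIM, is a transmembrane adaptor that binds the receptor's zeta chain. In regulatory T cells (Tregs) this machinery supplies the receptor signals on which their development and suppressive function depend, and the CD3 complex is what an anti-CD3 antibody binds.

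The 10 genes of this complex were followed through every probe set that the array's annotation assigns to one of their symbols alone. There were 17 such probe sets for 9 of the 10 genes, out of 45037 probe sets measured, and 0 were listed under Lck, so its level was not analysed here. The arrays were Affymetrix M430v2, with 3 per group and 1 mouse per array. The treated group was female NOD mice with the BDC2.5 receptor transgene, RAG1o/o, and the Foxp3GFP reporter, given 37.5 µg of the antibody KT3 intravenously on each of 5 days from 17 days of age and sorted at 28 or 29 days, which the labels call 11 or 12 days after treatment. The untreated group was female NOD mice with the same transgene and reporter, RAG1+/o, sorted at 28 or 29 days. Spleen cells were sorted as CD4+ and GFP+ and as negative for B220, CD8a and CD11b/c, so Cd4 itself helped to select the cells. RAG1 is needed to rearrange receptor genes, so RAG1o/o mice can make the transgenic receptor alone and have no mature B cells, while RAG1+/o mice can rearrange their own chains. Antibody and genotype differed together and cannot be told apart.

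Values are log2 RMA intensities, in which 1 unit is a 2-fold step, with the mean ± SD over 3 mice, and differences are treated minus untreated with the 95% interval from limma. Array medians lay between 6.41 and 6.53 on this scale, and the 3 arrays of a group limit the precision. The sort could be checked on the arrays. Foxp3, the Treg transcription factor, measured 11.43, 11.46 and 12.44 in treated and 10.75, 9.95 and 11.07 in untreated Tregs. The 10 Treg markers went both ways, 5 above 0 and 5 below with a median difference of −0.01, and 0 passed over the whole array. Those lowest relative to untreated Tregs, named after their values were seen, were Gpr83 at −2.76 and Ikzf4 at −2.44, both without overlap (limma adjusted p = 0.186 and 0.129). Cd8a lay between 6.83 and 7.16 and Cd8b1 between 6.04 and 6.30 over all 6 arrays, close to the array medians. Markers of excluded cells were present to unequal degrees. The summed linear intensity of 17 B cell markers was 2137 to 2338 in treated samples and 26455, 25847 and 3400 in untreated replicates 1, 2 and 3. For 19 myeloid markers it was 24205 to 72331 in treated samples and 53117, 30254 and 4261 in the untreated ones. RMA leaves no value at 0, and 0 of the 17 B cell and 3 of the 19 myeloid markers stayed under 7 on every array. Untreated replicate 3 thus stood apart, with the lowest B cell and myeloid signal of its group, and it also had the smallest 3′ excess of the Gapdh control probe sets, 2.02 against 3.23 to 4.10 on the other 5 arrays. The part of these differences in the results below was not tested, and results that change without an array are given both ways.

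Most of the complex measured higher in treated than in untreated Tregs and Trat1 measured lower, but no difference passed the test over the whole array. Of the 17 probe sets 15 had a difference above 0 (88.2%, beside 58% of all 45037), with a median of 0.29 against 0.05 for all. Among these 15 were 5 dim probe sets, under 7 on every array, with differences of 0.01 to 0.20. With limma and Benjamini-Hochberg adjustment, 0 of the 17 reached an adjusted p of 0.05, where 0% of all probe sets did in either direction. The smallest adjusted p among them was 0.961. At an unadjusted p under 0.05, 2 of 17 were higher (11.8%, beside 1.53% of all probe sets) and 2 of 17 were lower (11.8%, beside 3% of all). All treated values lay above all untreated values in 5 of 17 (29.4%, beside 5.14% of all) and below them in 2 of 17 (11.8%, beside 5.02%). These 7 belong to 4 genes, Cd3e, Cd247, Zap70 and Trat1, and probe sets of 1 gene share their target. The members were chosen with earlier results of these data known, so the shares are descriptive. Without untreated replicate 3, an alternative chosen after its values were seen, the counts were 7 above (11.9% of all probe sets) and 2 below (10.6% of all). With limma adjustment 0 of the 17 were called without it, beside 0.00444% of all probe sets higher and 0.127% lower. At an unadjusted p under 0.05 they were then 3 higher (1.46% of all) and 2 lower (4.04% of all). In these bulk samples, fewer T cells among the sorted cells and less RNA of a gene per cell cannot be told apart.

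**Figure D1:**
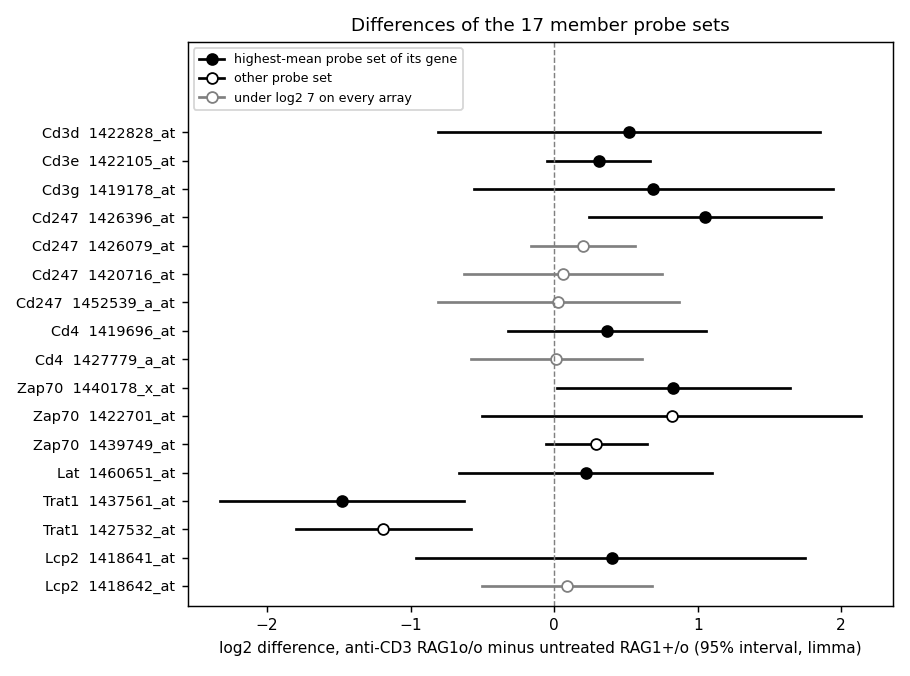
Difference of each of the 17 probe sets (log2 units, treated RAG1o/o minus untreated RAG1+/o Tregs) with its 95% limma interval, n = 3 mice per group. Filled circles are the highest-mean probe set of each gene and grey ones stay under 7 on every array. The Trat1 intervals lie wholly below 0, those of Cd247 1426396_at and Zap70 1440178_x_at wholly above it, and the others cross 0.

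Cd3e encodes the epsilon chain, the part of the complex that anti-CD3 antibodies commonly bind. Its probe set 1422105_at measured 11.97, 12.02 and 12.16 in treated Tregs, against 11.82, 11.62 and 11.78 in untreated Tregs. The groups did not overlap, and each spanned no more than 0.19. The difference was 0.31 (interval −0.05 to 0.67, a 1.24-fold higher mean, limma adjusted p = 0.961). In linear intensity this is 4009.1 to 4565.7 in treated and 3153.8 to 3606.0 in untreated samples. The difference stayed between 0.25 and 0.34 whichever single array was left out.

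Cd3d and Cd3g, the delta and gamma chains that each pair with epsilon, varied far more between mice than Cd3e. Cd3d (1422828_at) measured 12.66, 12.04 and 12.61 in treated and 12.33, 10.55 and 12.88 in untreated Tregs. Cd3g (1419178_at) measured 11.95, 11.84 and 12.85 in treated and 11.34, 10.57 and 12.65 in untreated Tregs. For both genes untreated replicate 2 was the lowest of the 6 arrays and untreated replicate 3 the highest or second highest, so the groups overlapped. The difference was 0.52 for Cd3d (interval −0.81 to 1.85) and 0.69 for Cd3g (interval −0.56 to 1.94), both with a limma adjusted p of 0.961. Without untreated replicate 2 these became −0.17 and 0.22, and without untreated replicate 3 they became 0.99 and 1.25. The summed B cell marker intensity of untreated replicates 1, 2 and 3 was 26455, 25847 and 3400, and the summed myeloid one 53117, 30254 and 4261. The part of such cells in the Cd3d and Cd3g values was not tested.

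Cd247, the zeta chain that carries most of the complex's tyrosine motifs, had the largest positive difference of the members. Its brightest probe set, 1426396_at, measured 11.39, 11.72 and 12.43 in treated and 10.30, 10.80 and 11.29 in untreated Tregs. Every treated value lay above every untreated one, though treated replicate 1 exceeded untreated replicate 3 by little. The difference was 1.05 (interval 0.24 to 1.86), a 2.07-fold higher mean, with an unadjusted limma p of 0.0180 and an adjusted p of 0.961. Leaving out single arrays kept it between 0.76 and 1.30. The 3 other Cd247 probe sets were dim, under 7 on every array, and differed by 0.20, 0.06 and 0.03, so the mean of all 4 differed by 0.34.

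Cd4, the coreceptor by which the cells were sorted, overlapped between the groups. Its brighter probe set, 1419696_at, measured 9.77, 9.89 and 10.41 in treated and 9.86, 9.10 and 10.01 in untreated Tregs. The difference was 0.37 (interval −0.32 to 1.06, limma adjusted p = 0.961), and it was 0.09 without untreated replicate 2. A dim second probe set, 1427779_a_at, differed by 0.01, with 5.62 to 6.06 in treated and 5.40 to 6.24 in untreated Tregs.

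**Figure D2:**
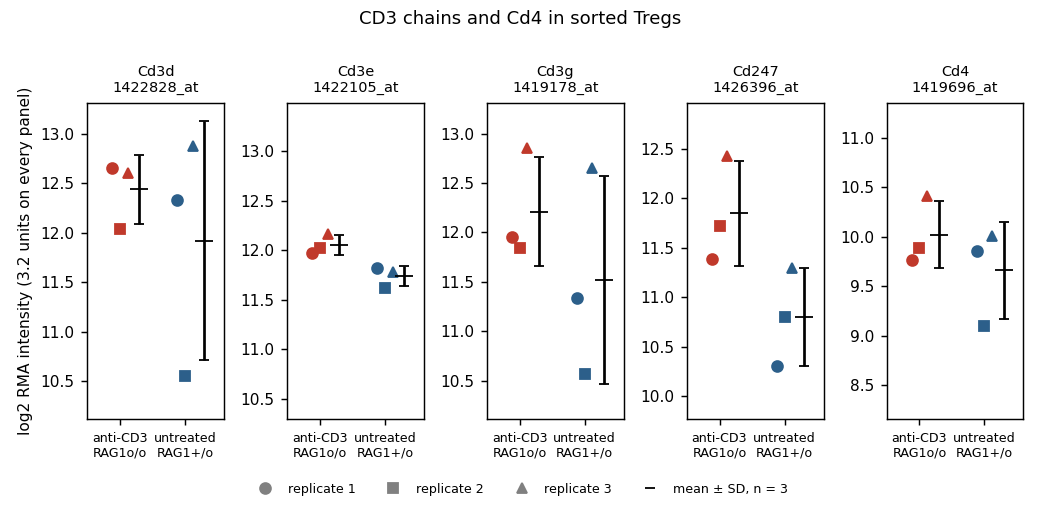
Log2 RMA intensity of the highest-mean probe set of Cd3d, Cd3e, Cd3g, Cd247 and Cd4, with 1 symbol per mouse and black bars for the mean ± SD (n = 3), on panels that each span 3.2 units. Cd3e and Cd247 separate the groups. Untreated replicate 2 lies below the other 5 arrays for Cd3d, Cd3e, Cd3g and Cd4.

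The starts of the neighbouring CD3 genes and of Trat1, which differed the opposite way, are printed here. Cd3d and Cd3g shared their order across the untreated arrays, and Cd3e did not spread with them. That order was not particular to this locus. Untreated replicates 1, 2 and 3 also gave it for Cd4 1419696_at (9.86, 9.10 and 10.01) and Lat (10.26, 9.56 and 10.75). Zap70 1440178_x_at had it too (9.82, 8.96 and 9.97). On mouse chromosome 9 Cd3g, Cd3d and Cd3e follow each other with 0 annotated genes between them, and Cd3g and Cd3d are read in opposite directions from neighbouring starts. The sequences are RefSeq's for build GRCm38.p6, from 250 bases before to 50 after each gene's start, 5′ to 3′ on the gene's strand. Capitals mark AGGAAG, a core motif of ETS family factors, and TGTGGT, a core motif of RUNX family factors, each searched on both strands as AGGAAG or CTTCCT and TGTGGT or ACCACA.
Cd3g, chr9:44980382-44980681, minus strand: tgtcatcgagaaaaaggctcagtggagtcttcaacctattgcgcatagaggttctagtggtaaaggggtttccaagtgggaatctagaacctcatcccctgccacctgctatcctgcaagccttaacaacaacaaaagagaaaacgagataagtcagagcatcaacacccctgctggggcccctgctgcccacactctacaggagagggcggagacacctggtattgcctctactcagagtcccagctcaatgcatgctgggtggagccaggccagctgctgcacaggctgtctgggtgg
Cd3d, chr9:44981536-44981835, plus strand: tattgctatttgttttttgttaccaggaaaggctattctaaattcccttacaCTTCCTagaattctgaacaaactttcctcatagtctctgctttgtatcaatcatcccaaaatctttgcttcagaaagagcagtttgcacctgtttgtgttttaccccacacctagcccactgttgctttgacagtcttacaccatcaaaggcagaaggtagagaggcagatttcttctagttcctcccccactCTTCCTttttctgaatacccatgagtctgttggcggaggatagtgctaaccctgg
Cd3e, chr9:45009562-45009861, minus strand: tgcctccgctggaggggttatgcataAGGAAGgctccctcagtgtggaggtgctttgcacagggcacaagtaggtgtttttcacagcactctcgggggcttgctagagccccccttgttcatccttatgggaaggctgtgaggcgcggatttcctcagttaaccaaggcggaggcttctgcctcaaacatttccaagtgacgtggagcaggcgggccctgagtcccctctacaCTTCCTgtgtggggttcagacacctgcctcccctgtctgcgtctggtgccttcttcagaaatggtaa
Trat1, chr16:48772013-48772312, minus strand: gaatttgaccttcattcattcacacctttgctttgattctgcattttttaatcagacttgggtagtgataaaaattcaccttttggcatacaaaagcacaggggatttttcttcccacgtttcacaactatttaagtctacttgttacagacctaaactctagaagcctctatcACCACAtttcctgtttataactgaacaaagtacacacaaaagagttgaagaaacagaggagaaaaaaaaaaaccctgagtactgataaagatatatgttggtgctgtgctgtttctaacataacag
The ETS letters occurred 2 times in the Cd3d window, 2 times in that of Cd3e and 0 times in those of Cd3g and Trat1. The RUNX letters occurred 1 time in the Trat1 window and 0 times in the other 3. Of all 32851 promoter windows of this length, 35.4% held the ETS letters and 16.8% the RUNX letters. There were 12 windows for 9 of the 10 genes, Lck included, and none for Cd4. Of these 12, 9 held the ETS letters and 4 the RUNX letters. A match describes the letters and not a bound site.

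Zap70, the kinase that docks on phosphorylated CD3 and zeta tails, had 3 probe sets, all with higher means in treated Tregs. The brightest, 1440178_x_at, measured 10.17, 10.10 and 10.96 in treated and 9.82, 8.96 and 9.97 in untreated Tregs, without overlap. The suffix _x_ marks a probe set whose probes may also match other transcripts. Its difference was 0.83 (interval 0.02 to 1.64), a 1.78-fold higher mean, with an unadjusted limma p of 0.0455 and an adjusted p of 0.961. It was 0.52 without untreated replicate 2, the lowest array.

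The other Zap70 probe sets gave one wide and one narrow spread. Probe set 1422701_at measured 8.63, 8.21 and 10.22 in treated and 8.33, 7.47 and 8.79 in untreated Tregs, and its groups overlapped. The difference was 0.82 (interval −0.50 to 2.14), and 0.22 without treated replicate 3. That array had the largest 3′ excess of both control genes, 4.10 for Gapdh and 3.62 for beta-actin, and the part of this in the value was not tested. Probe set 1439749_at measured 8.67, 8.68 and 8.56 in treated and 8.22, 8.39 and 8.42 in untreated Tregs. Here the groups did not overlap, but the difference was 0.29 (interval −0.06 to 0.65, limma adjusted p = 0.961), a 1.23-fold higher mean.

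Lat and Lcp2, the scaffolds that ZAP-70 phosphorylates, did not separate the groups. Lat (1460651_at) measured 9.89, 10.38 and 10.95 in treated and 10.26, 9.56 and 10.75 in untreated Tregs. Treated and untreated values alternated along the scale, and the difference was 0.22 (interval −0.66 to 1.10, limma adjusted p = 0.964). It turned to −0.10 without untreated replicate 2 and to −0.06 without treated replicate 3 or with array weights.

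Lcp2 (1418641_at) measured 10.38, 9.23 and 11.66 in treated and 10.33, 9.53 and 10.22 in untreated Tregs. Both the highest and the lowest of the 6 values were treated, and the treated SD of 1.21 was the widest of any member in that group. The difference was 0.40 (interval −0.96 to 1.75, limma adjusted p = 0.962), and −0.22 without treated replicate 3. SLP-76 is also made by myeloid cells and platelets. Treated replicate 2, lowest for Lcp2, had the lowest summed myeloid marker intensity among treated samples, 24205, while untreated replicate 3, with 4261, was in the middle of its group at 10.22. The part of such cells in the Lcp2 values was not tested. The second Lcp2 probe set, 1418642_at, was under 7 on every array and differed by 0.09.

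Trat1, the adaptor bound to the zeta chain, was the only member with a negative difference, and both of its probe sets gave it. Probe set 1437561_at measured 8.80, 9.34 and 8.75 in treated and 9.77, 10.40 and 11.16 in untreated Tregs. The groups did not overlap, and the untreated values covered 1.40 against 0.58 for the treated ones. The difference was −1.48 (interval −2.33 to −0.63), a 2.79-fold lower mean in treated Tregs, with an unadjusted limma p of 0.00443 and an adjusted p of 0.961.

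Probe set 1427532_at of Trat1 measured 9.07, 8.32 and 9.27 in treated and 10.13, 10.07 and 10.04 in untreated Tregs. The untreated mice agreed within 0.09, and the highest treated value, 9.27, lay below all of them. The difference was −1.19 (interval −1.80 to −0.58), a 2.29-fold lower mean, with an unadjusted limma p of 0.00232 and an adjusted p of 0.961. Leaving out any single array kept the differences between −1.82 and −1.12 for 1437561_at and between −1.39 and −0.91 for 1427532_at. Without untreated replicate 3 they were −1.12 and −1.21.

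**Figure D3:**
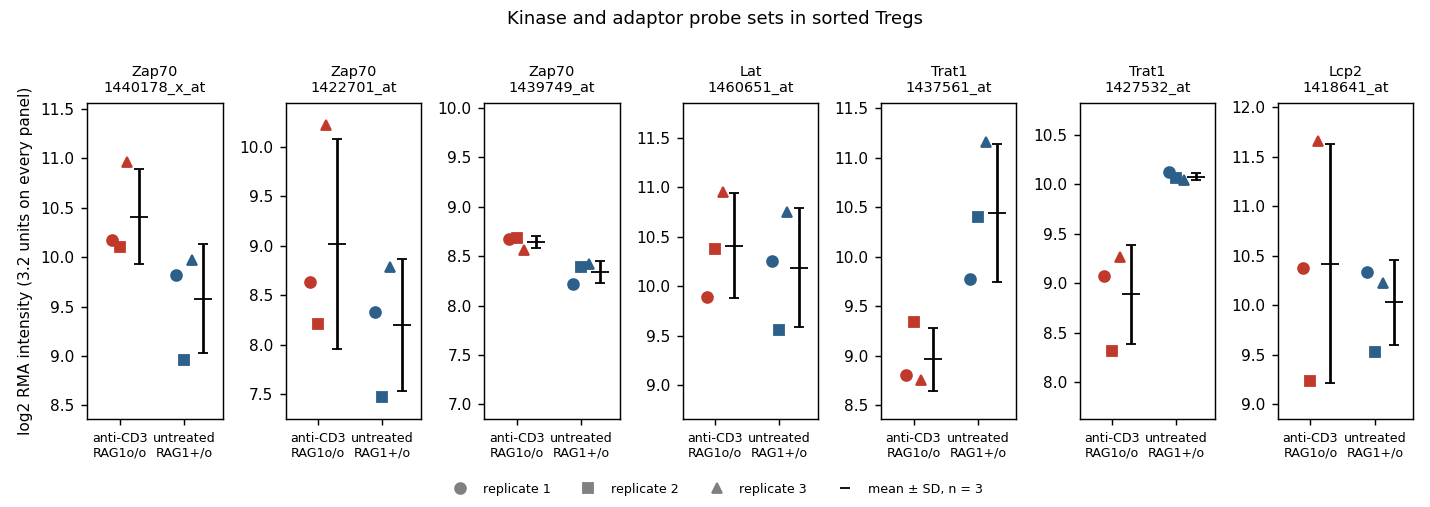
Log2 RMA intensity of the Zap70, Lat, Trat1 and Lcp2 probe sets that reached 7 on some array, with 1 symbol per mouse and black bars for the mean ± SD (n = 3), on panels that each span 3.2 units. Treated symbols lie wholly below the untreated ones for both Trat1 probe sets, while Lat and Lcp2 overlap.

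Replicate 3 was often the highest mouse of its group. Of the 12 probe sets that reached 7 on some array, 9 were highest in replicate 3 among treated samples and 9 were highest in replicate 3 among untreated samples. Untreated replicate 2 was the lowest of its group in 8 of the 12. The labels' array file numbers place the replicate 3 arrays of both groups apart from the other 4, so differences were also taken within each run of numbers. Cd247 1426396_at differed by 1.01 in replicates 1 and 2 and by 1.13 in replicate 3, and Zap70 1440178_x_at by 0.75 and 0.99. Trat1 differed by −1.02 and −2.41 (1437561_at) and by −1.41 and −0.77 (1427532_at). Cd3e differed by 0.27 and 0.37, so these probe sets kept their direction in both runs. Of the dim Cd247 probe sets, 1420716_at gave −0.28 and 0.74, 1452539_a_at 0.41 and −0.73, and 1426079_at 0.29 and 0.02. Cd3d did not keep its direction, with 0.91 in replicates 1 and 2 and −0.26 in replicate 3. For Cd3g the values were 0.94 and 0.20, for Cd4 0.35 and 0.41, for Lat 0.22 and 0.20, and for Lcp2 1418641_at −0.12 and 1.44. The replicate 3 values compare 1 mouse with 1 mouse. They also set the largest 3′ excess of Gapdh, 4.10 in treated replicate 3, against the smallest, 2.02 in untreated replicate 3. The part of this in the values was not tested.

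**Figure D4:**
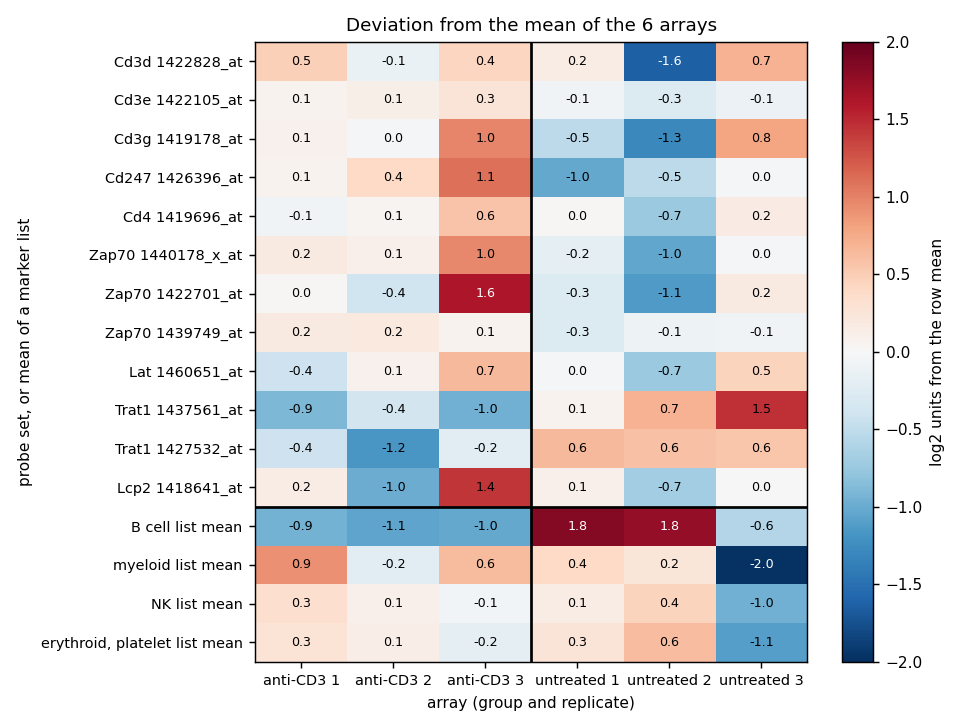
Deviation of each array from the mean of the 6 arrays (log2 units, colour and printed value) for the 12 member probe sets that reached 7 on some array and for the mean of 4 marker lists, with treated arrays left of the black line. Trat1 is below its mean on all 3 treated arrays, and untreated replicate 3 is the low array for the myeloid, NK and erythroid or platelet lists.

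The genes whose profiles over the 6 arrays lay nearest to Cd3e and to Trat1 were sought among 9555 other genes with a mean of at least 7, by the root mean square distance between profiles centred on their own means, which also counts how far values spread. For Cd3e (1422105_at) the nearest were Rit1 at 0.036, AU040320 at 0.042, Mettl23 at 0.051, Lss at 0.052 and Serpinh1 at 0.058. Cd4 at 0.267 and Lat at 0.393 were the nearest of the other members, but ranked only 2889 and 5537 among the 9555. Cd3d, whose values spread more widely, was at 0.684 and ranked 8567. For Trat1 (1437561_at) the nearest were She at 0.298, Got1 at 0.383, Zdhhc2 at 0.396, Adamts6 at 0.397 and Tktl1 at 0.407. The other members lay at 1.008 to 1.371 from Trat1. She, an adaptor gene with an SH2 domain, measured 7.25, 7.39 and 7.05 in treated and 8.31, 8.58 and 8.80 in untreated Tregs.

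Other genes of receptor signalling went both ways. Of 71 listed genes 67 were measured under a single symbol, each read from its highest-mean probe set. With limma 0 of the 67 passed over the whole array. At an unadjusted p under 0.05, 4 were higher (beside 1.82% of 18193 genes) and 3 lower (beside 3.17%). All treated values lay above all untreated ones in 4 of the 67 (5.61% of all genes) and below them in 6 (5.24%). The median difference was 0.08, against 0.05 for all genes, with 36 genes above 0 and 31 below.

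Among 21 adaptors, with a median of −0.12, the smallest p belonged to Nck1, which links receptor phosphorylation to actin. Nck1 measured 9.59, 8.85 and 9.24 in treated and 9.89, 10.21 and 10.09 in untreated Tregs, without overlap. The difference was −0.83 (interval −1.36 to −0.31, limma adjusted p = 0.961), while its 2 dimmer probe sets differed by −0.14 and −0.04. Themis, a thymocyte and T cell protein that binds phosphatases at the receptor, differed by −0.70, with 8.51 to 8.91 in treated and 9.02 to 9.72 in untreated Tregs. The 3 other Themis probe sets differed by −0.68, −0.51 and −0.10. Sla2, an adaptor that dampens receptor signalling, differed by 0.70, with 9.93 ± 0.30 in treated and 9.23 ± 0.25 in untreated Tregs, and by 0.61 on its other probe set. Sh2d2a, the T cell specific adaptor that binds Lck, differed by 0.67 with overlapping groups, 8.63 to 9.22 in treated and 7.89 to 8.66 in untreated Tregs.

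Among 12 genes that restrain receptor signalling, with a median of 0.24 and 7 above 0 (58.3%, beside 58.5% of all genes), Dgkz and Ubash3b had unadjusted p values under 0.05. Dgkz, a kinase that removes the messenger diacylglycerol, measured 11.77, 12.39 and 12.10 in treated and 11.26, 10.51 and 11.74 in untreated Tregs. Its lowest treated value was just above its highest untreated one, and the difference was 0.92 (interval 0.14 to 1.69, limma adjusted p = 0.961), with 0.88 on its second probe set. Ubash3b, a phosphatase that acts on ZAP-70, differed by 0.46, with 11.02 to 11.11 in treated and 10.53 to 10.77 in untreated Tregs. Its other probe sets differed by 0.83 and 0.12.

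Among 10 kinases, with a median of −0.05, Txk of the Tec family differed by −0.67 (interval −1.28 to −0.06, limma adjusted p = 0.961). Txk measured 8.70, 8.55 and 8.18 in treated and 8.71, 9.14 and 9.57 in untreated Tregs, so that treated replicate 1 and untreated replicate 1 nearly coincided. The 10 surface molecules had differences from −0.48 to 0.61 (median 0.06), and the 14 enzymes and factors from −1.05 to 0.36 (median 0.08). In neither list did any gene reach an unadjusted p of 0.05.

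**Figure D5:**
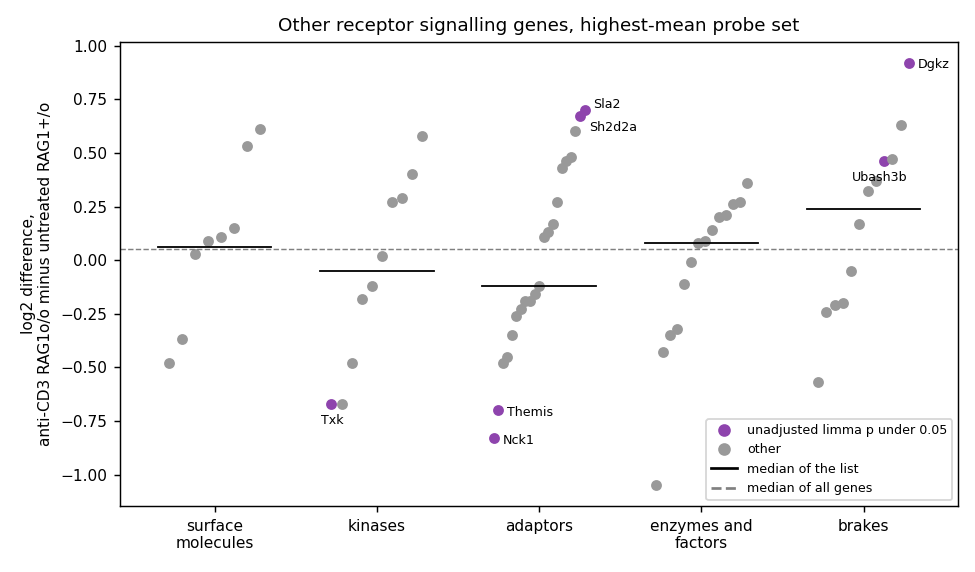
Log2 difference (treated RAG1o/o minus untreated RAG1+/o Tregs) of the other receptor signalling genes by role, 1 point per gene. Cd8a and Cd8b1 count among the 67 genes and in the surface median but are not drawn. Black lines are list medians, from −0.12 for adaptors to 0.24 for brakes, and the dashed line is the median of all genes at 0.05. The 7 purple genes had an unadjusted limma p under 0.05, and 0 passed after adjustment.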

How the data were processed

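Per the series' design text, the authors ran RMA in GenePattern (version not stated in its text) on RNA that the labels' protocols describe as amplified 2 times. The deposited values are RMA intensities on a linear scale, 5.47 to 29584.9, and array medians ran from 85.3 to 92.4. Log2 was taken and nothing else was normalized. The 64 control probe sets were left out, and 45037 were tested.

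Symbols came from the platform annotation, updated by gene ID. No gene was named from the 932 probe sets with several symbols or the 9160 with none. Treated and untreated arrays entered a single fit (lmFit and eBayes of limma 3.58.1, R 4.3.3) over the whole array, with p-values adjusted by Benjamini-Hochberg and called at 0.05. Since an array is 1 mouse, the spread tested is that between mice. The fit was checked on simulated data with the same spread for every probe set, so the check does not measure the power in these data.

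Named genes were every member probe set, listed signalling genes with an unadjusted p under 0.05, and the 5 genes nearest to Cd3e and to Trat1. Members and lists were chosen with earlier results of these data known. Some lists share genes. NK, thymocyte and Treg markers had median differences of 0.04, −0.03 and −0.01, erythroid and platelet markers 0.17, CD8 markers −0.07, B cell markers −1.85 and myeloid markers 0.85. Alternatives covered a block, covariates, a filter at 7 in 3 arrays, probe set summaries, scaling, moderation, weights, a pseudocount of 16, a threshold of 0.1 and each sample left out. Figures used matplotlib 3.10.9.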

Additional observations from a re-analysis of the deposited data

How the results depend on the processing

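Over 17 alternatives, 0 member probe sets passed the threshold, and 10 of the 17 kept their direction wherever they were fitted, among them Cd3e, Cd3g, the brightest Cd247 and Cd4 probe sets, and all of Zap70 and Trat1. Of these 10, 6 had a value under all 17 alternatives and the others under 14 or more, since summaries per gene and the filter on dim probe sets leave some out. Over the whole array limma called 0 probe sets (2037 at an unadjusted p under 0.05), 5 with array weights, and 0 to 59 when 1 sample was left out, the 59 being without untreated replicate 3. Leaving out single samples gave −0.17 to 0.99 for Cd3d, −0.22 to 0.99 for Lcp2 1418641_at and −0.10 to 0.50 for Lat. It gave −0.27 to 0.27 for Cd247 1420716_at, −0.26 to 0.45 for Cd247 1452539_a_at, −0.18 to 0.24 for Cd4 1427779_a_at and −0.17 to 0.27 for Lcp2 1418642_at. Array weights turned Lat to −0.06, Lcp2 1418642_at to −0.11 and Cd4 1427779_a_at to −0.03. Quantile normalization turned Cd247 1452539_a_at to −0.01 and Cd4 1427779_a_at to −0.02. Median centring and age as a covariate each turned Cd4 1427779_a_at to −0.01. The cause was not tested, and the 4 dim probe sets named here had differences of 0.09 or less. With the replicate block 0 probe sets were called and the smallest member adjusted p was 0.733. Same-numbered samples had correlated deviations of 0.451, 0.083 and 0.088, and the other combinations −0.377 to 0.166. Same-numbered arrays also had neighbouring file numbers. The labels do not say that a number marks a shared litter or day, so the main fit did not take the numbers as pairs.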
